A study of Mus musculus with 14 samples.

Results

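The genes described here are 10 enteroendocrine genes of the mouse gut epithelium, namely Neurog3, Neurod1, Chga, Chgb, Tph1, Ghrl, Gcg, Cck, Sct and Sst, taken by symbol from a table of 18781 genes measured by RNA-seq in small intestinal organoids. All 10 had a row in the table and all had a mean level above log2 of 10 on its log2 scale, the minimum for testing, so all 10 were among the 12802 genes tested. Organoids are crypt cultures of epithelium without stroma. They were grown in IntestiCult medium without treatment. The design asks how loss of RNase H2, which removes ribonucleotides from DNA, and loss of the autophagy protein ATG16L1 alter the epithelium alone and together.

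WT denotes floxed organoids (ATG16L1flox/flox_RNaseH2Bflox/flox) without Cre (n = 4). Atg16l1 ΔIEC denotes ATG16L1flox/flox_VillinCre+/- (n = 4), Rnaseh2b ΔIEC denotes RNaseH2Bflox/flox_VillinCre+/- (n = 2) and Atg16l1/Rnaseh2b ΔIEC denotes ATG16L1flox/flox_RNaseH2Bflox/flox_VillinCre+/- (n = 4). The last is called the combined knockout below. All groups thus carried floxed alleles, and the knockouts carried Cre driven by the Villin promoter, which acts in the epithelium only. The animals' age is not given for these cultures, and nothing states that libraries came from separate animals, so p-values measure the spread between libraries, which may be technical. The targeted genes followed the labels: Rnaseh2b averaged 8.54 in WT, 7.18 in Rnaseh2b ΔIEC and 7.81 in the combined knockout, and Atg16l1 averaged 9.46 in WT, 6.92 in Atg16l1 ΔIEC and 8.39 in the combined knockout, so that both were less reduced there than in the single knockouts.

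The libraries fell into pairs. Within each genotype of 4, libraries 1 and 2 deviated together from the genotype mean, as did libraries 3 and 4 (r from 0.41 to 0.86 over 6 pairs), and each pair shared 1 sex by Xist and Ddx3y. WT was run on lane 1, both single knockouts on lane 2, and the combined knockout on lane 2 (libraries 1 and 2, male) and lane 1 (libraries 3 and 4, female). Lane, sex and pair of origin cannot be told apart in the combined knockout. Libraries 1 and 2 were male in WT and female in Atg16l1 ΔIEC, and libraries 3 and 4 were the reverse. Both Rnaseh2b ΔIEC libraries were male, so every comparison with that genotype is unbalanced for sex. Calls are therefore also given from a fit in which each pair was a random block (correlation 0.65), named below the paired-library fit. Rnaseh2b ΔIEC enters that fit as 1 pair. Its spread between pairs was not observed and is taken from the other genotypes.

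Enteroendocrine cells are rare hormone-secreting cells of the gut epithelium. They arise from crypt progenitors that escape Notch signalling and transiently express the transcription factor Neurog3, and they then switch on factors such as Neurod1, packing peptide hormones or serotonin into dense-core granules built with chromogranins. Different subtypes secrete ghrelin, glucagon-like peptides, cholecystokinin, secretin, somatostatin or serotonin. In bulk RNA, fewer cells of a type and less RNA per cell cannot be told apart.

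Relative to gene length, Chgb was the most abundant of the genes in WT organoids and Neurod1 the least. Subtracting log2 of the exon length in kilobases gave WT levels of 12.59 for Chgb, 11.42 for Gcg, 10.59 for Cck, 10.33 for Sst, 10 for Chga, 9.27 for Ghrl, 7.23 for Neurog3, 7.03 for Sct, 6.25 for Tph1 and 5.72 for Neurod1. In this order Cck and Sst, Sst and Chga, and Neurog3 and Sct lay within their SDs of each other, whereas the other neighbours were further apart.

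Promoter stretches are shown for Neurog3, Chga and Chgb, whose levels moved together, and for Sst and Gcg, which followed the other genes least. RefSeq promoters (GRCm38.p6) were found for all 10 genes, and the 250 bases before each start were searched on both strands for TGACGTNA, the cyclic AMP response element, and for CAGATG, an E-box read by basic helix-loop-helix factors such as NEUROG3 and NEUROD1. Both motifs were chosen with the results known. TGACGTNA occurred in 2.52% of 32851 promoter entries and in those of Chga, Chgb and Sst. CAGATG occurred in 14.4% of entries and in those of Cck, Gcg and Sct, in Gcg 2 times. The promoters of Neurog3, Neurod1, Tph1 and Ghrl held neither. The lines below give 28 bases around TGACGTNA in Chga (chr12:102554887-102554914, plus strand), Chgb (chr2:132781560-132781587, plus strand) and Sst (chr16:23890875-23890902, minus strand), and the 150 bases before the start of Gcg (chr2:62483654-62483803, minus strand) and of Neurog3 (chr10:62132940-62133089, plus strand), with the motif letters in capitals.
Chga: ggcggtcctaTGACGTAAtttcctgggt
Chgb: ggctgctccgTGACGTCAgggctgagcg
Sst: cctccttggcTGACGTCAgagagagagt
Gcg: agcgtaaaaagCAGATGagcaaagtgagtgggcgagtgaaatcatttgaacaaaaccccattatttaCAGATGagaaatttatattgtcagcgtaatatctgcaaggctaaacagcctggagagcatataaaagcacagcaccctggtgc
Neurog3: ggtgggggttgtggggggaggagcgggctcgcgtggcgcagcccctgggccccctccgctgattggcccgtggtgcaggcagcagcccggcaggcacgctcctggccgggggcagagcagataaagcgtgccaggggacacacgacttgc
The match to TGACGTNA read TGACGTAA in Chga and TGACGTCA in Chgb and Sst. Any link between the motifs and the levels was not tested. A match describes these letters only.

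Neurog3, the factor that commits progenitors to the enteroendocrine fate, differed most between genotypes. Its gene lies at chr10:62133090-62134763. Its level was 7.71, 7.92, 8.07 and 8.21 in the WT libraries, 7.72, 7.90, 7.25 and 7.38 in Atg16l1 ΔIEC, 7.58 and 7.57 in Rnaseh2b ΔIEC, and 8.58, 8.35, 8.56 and 8.50 in the combined knockout. All 4 libraries of the combined knockout thus lay above every other library, and the single knockouts lay in or below the WT range. Neurog3 was 1.90-fold higher in the combined knockout than in Rnaseh2b ΔIEC (log2 difference 0.93, SE 0.16, adjusted p = 0.0019) and 1.91-fold higher than in Atg16l1 ΔIEC (0.94, SE 0.13, adjusted p = 0.00062), and both calls held in the paired-library fit (adjusted p = 0.021 and 0.010). Within lane 2 the same differences were 0.893 and 0.904. Against WT the rise was 0.52 (SE 0.13, adjusted p = 0.020), which the paired-library fit did not call (adjusted p = 0.15). Neurog3 was lower in Atg16l1 ΔIEC than in WT (log2 difference -0.41, adjusted p = 0.045), a call lost in the paired-library fit (adjusted p = 0.22) and without any single one of WT libraries 2, 3 and 4, Atg16l1 ΔIEC libraries 3 and 4, Rnaseh2b ΔIEC libraries 1 and 2 and combined knockout libraries 3 and 4 (adjusted p from 0.053 to 0.13).

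Neurod1, which acts downstream of Neurog3, did not share this pattern. Its level was 7.06, 7.10, 7.32 and 7.21 in WT, 7.09, 7.37, 6.98 and 7.11 in Atg16l1 ΔIEC, 6.82 and 6.95 in Rnaseh2b ΔIEC, and 7.01, 7.05, 7.26 and 7.06 in the combined knockout. WT, Atg16l1 ΔIEC and the combined knockout overlapped throughout, and both Rnaseh2b ΔIEC libraries lay below all others. No comparison passed the threshold. The difference between the combined knockout and Atg16l1 ΔIEC was -0.04 with a 95% interval of -0.23 to 0.14, which does not reach the Neurog3 difference.

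Chga and Chgb encode chromogranins, the acidic proteins that help form the granule core. Chga (chr12:102554969-102565028) read 11.28, 11.27, 11.61 and 11.66 in WT, 11.20, 11.09, 10.75 and 10.92 in Atg16l1 ΔIEC, 11.21 and 11.06 in Rnaseh2b ΔIEC, and 11.83, 11.69, 11.68 and 11.66 in the combined knockout. Both single knockouts lay entirely below WT, and the combined knockout lay at or above its upper end. Chga fell in Atg16l1 ΔIEC (log2 difference -0.47, SE 0.10, adjusted p = 0.0078, with 0.059 in the paired-library fit). It was higher in the combined knockout than in Rnaseh2b ΔIEC by 0.58 (SE 0.13, adjusted p = 0.0057) and than in Atg16l1 ΔIEC by 0.72 (SE 0.10, adjusted p = 0.00064), calls that held in the paired-library fit (0.040 and 0.0075).

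Chgb (chr2:132781278-132795079) read 13.90, 13.84, 14.24 and 14.19 in WT, 13.87, 13.98, 13.33 and 13.44 in Atg16l1 ΔIEC, 13.59 and 13.57 in Rnaseh2b ΔIEC, and 14.10, 13.98, 14.56 and 14.59 in the combined knockout. Its values followed the library pairs in every genotype of 4, with the second pair higher in WT and the combined knockout and lower in Atg16l1 ΔIEC. Chgb rose in the combined knockout against Rnaseh2b ΔIEC (log2 difference 0.73, SE 0.20, adjusted p = 0.019, with 0.054 in the paired-library fit) and against Atg16l1 ΔIEC (0.66, SE 0.17, adjusted p = 0.014, with 0.046 in the paired-library fit). The second difference was 0.389 within lane 2 and no longer called (adjusted p = 0.16).

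Tph1 encodes tryptophan hydroxylase, the rate-limiting enzyme of serotonin synthesis in enterochromaffin cells. Its level (chr7:46644641-46672537) was 8.74, 8.60, 9.12 and 9.04 in WT, 8.71, 9.09, 8.59 and 8.55 in Atg16l1 ΔIEC, 8.32 and 8.38 in Rnaseh2b ΔIEC, and 8.87, 8.78, 9.31 and 9.35 in the combined knockout. The Rnaseh2b ΔIEC libraries were the lowest of the 14. Tph1 rose by 0.73 from Rnaseh2b ΔIEC to the combined knockout (SE 0.19, adjusted p = 0.015), a call lost in the paired-library fit (adjusted p = 0.079). In Rnaseh2b ΔIEC its value was below WT without passing the threshold (log2 difference -0.52, SE 0.19, adjusted p = 0.058).

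Ghrl encodes ghrelin, the hormone of X cells that stimulates food intake, and had the largest fall of the 10 genes in either single knockout. Its level (chr6:113716119-113719880) was 9.44, 9.28, 9.41 and 9.39 in WT, 8.82, 9.20, 8.61 and 8.89 in Atg16l1 ΔIEC, 8.42 and 8.53 in Rnaseh2b ΔIEC, and 9.08, 8.93, 9.36 and 9.32 in the combined knockout. Both single knockouts lay below all WT libraries, Rnaseh2b ΔIEC lowest. Ghrl was 1.87-fold lower in Rnaseh2b ΔIEC than in WT (log2 difference -0.90, SE 0.14, adjusted p = 0.00069) and the call held in the paired-library fit (adjusted p = 0.025). It was 1.42-fold lower in Atg16l1 ΔIEC (-0.50, SE 0.11, adjusted p = 0.0086, with 0.15 in the paired-library fit). Because lane and genotype coincide in these comparisons, a lane term can be estimated only from the pairs of the combined knockout, and with it the differences were -0.572 (adjusted p = 0.055) and -0.169 (adjusted p = 0.53). Ghrl was higher in the combined knockout than in Rnaseh2b ΔIEC by 0.69 (SE 0.14, adjusted p = 0.0038, with 0.074 in the paired-library fit), and by 0.528 within lane 2.

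**Figure D1:**
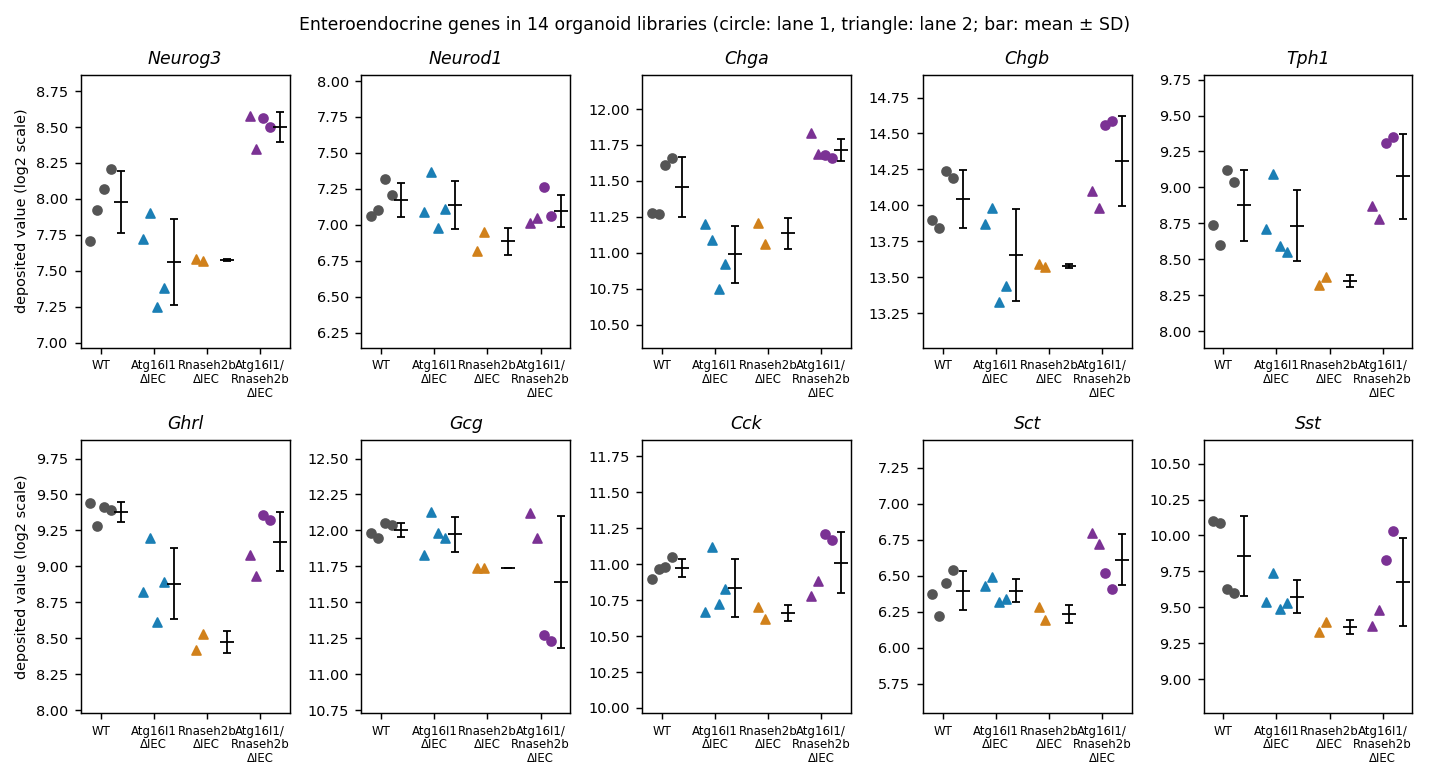
Deposited log2-scale value of each gene (vertical axis, the same span in every panel) in each library of the 4 genotypes (horizontal axis), with circles for lane 1, triangles for lane 2 and bars for the mean ± SD. For Neurog3 the libraries of the combined knockout (Atg16l1/Rnaseh2b ΔIEC), from 8.35 to 8.58, lie above all others, and for Gcg the same genotype splits into 12.12 and 11.95 on lane 2 and 11.27 and 11.23 on lane 1.

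Gcg, the proglucagon gene that yields GLP-1 and GLP-2 in L cells, behaved unlike the rest. Its level (chr2:62474530-62483650) was 11.98, 11.95, 12.05 and 12.04 in WT, 11.83, 12.13, 11.98 and 11.95 in Atg16l1 ΔIEC, 11.74 and 11.74 in Rnaseh2b ΔIEC, and 12.12, 11.95, 11.27 and 11.23 in the combined knockout. The spread thus lay within the combined knockout, whose second pair was the lowest of all libraries. Across all 4 libraries no comparison passed the threshold, and the difference from WT was -0.36 (SE 0.16, adjusted p = 0.14). Within lane 1 the second pair was below WT (log2 difference -0.753, adjusted p = 0.00025), whereas within lane 2 the first pair was 0.295 above Rnaseh2b ΔIEC (adjusted p = 0.014). The p-value within lane 1 rests on 1 pair of the combined knockout, both female, so spread between pairs of that genotype is not measured. WT had a male and a female pair on that lane. The p-value within lane 2 measures only the spread within 1 pair of each genotype. The direction of the Gcg difference between the combined knockout and Rnaseh2b ΔIEC therefore depends on which pair is used, being -0.10 with both. With a lane term, which here is the difference between the pairs of the combined knockout, Gcg was called lower than WT in Rnaseh2b ΔIEC (-1.049, adjusted p = 0.00018) and in Atg16l1 ΔIEC (-0.814, adjusted p = 0.00042), whereas without it these differences were -0.26 and -0.03.

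Cck, the cholecystokinin gene of I cells, ranged from 10.90 to 11.05 in WT, from 10.67 to 11.12 in Atg16l1 ΔIEC, from 10.62 to 10.70 in Rnaseh2b ΔIEC and from 10.78 to 11.21 in the combined knockout. No pairwise comparison of Cck passed the threshold, the closest being 0.35 between the combined knockout and Rnaseh2b ΔIEC (adjusted p = 0.057). Sct, the secretin gene of S cells, was the lowest of the hormone genes in deposited value. It ranged from 6.22 to 6.54 in WT and from 6.32 to 6.49 in Atg16l1 ΔIEC. It read 6.28 and 6.19 in Rnaseh2b ΔIEC and 6.80, 6.72, 6.52 and 6.41 in the combined knockout, a rise of 0.38 without overlap (SE 0.11, adjusted p = 0.021, with 0.13 in the paired-library fit). Sst, the somatostatin gene of D cells, was 10.10 and 10.09 in the first WT pair but 9.63 and 9.60 in the second, and 9.37 and 9.48 against 9.83 and 10.03 in the pairs of the combined knockout. It ranged from 9.49 to 9.74 in Atg16l1 ΔIEC and read 9.33 and 9.40 in Rnaseh2b ΔIEC, below all WT libraries (log2 difference -0.49, adjusted p = 0.057). The pair differences of -0.48 and 0.51 exceeded the genotype difference of -0.18 between the combined knockout and WT, and no comparison of Sst passed the threshold.

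Counted together, 1 of the 10 genes was lower in Rnaseh2b ΔIEC than in WT (Ghrl) and none was higher, where 12.3% of all genes tested were lower and 14.4% higher. Of the 10 differences 8 had an unadjusted p under 0.05, and the share of all genes at that p is not given. In the paired-library fit Chgb, Sst, Tph1 and Ghrl were under it, where 22.2% of all genes were. That fit called Ghrl alone, and 5.69% of all genes in either direction. All 10 differences were below 0, with a median of -0.36 against 0.00 for all genes. This shared direction did not hold with the lane term, under which Chgb (0.064), Cck (0.045) and Sst (0.018) were above 0 and Tph1 was at -0.02. Of the calls, Ghrl was then lost, and Gcg and Sct (-0.454, adjusted p = 0.035) were called. The number of genes called at the adjusted p moved from 1 with the fit. It was 7 when only these 2 genotypes were fitted, 4 without Atg16l1 ΔIEC library 2, 3 without WT library 1 or 2, and 2 without WT library 3 or 4 or without combined knockout library 1, 2 or 4. In Atg16l1 ΔIEC against WT 3 genes were lower (Chga, Ghrl and Neurog3) and none higher, where 10.4% of genes were lower and 8.73% higher, and the paired-library fit called none, with 4 genes at an unadjusted p under 0.05 in the fit without pairs. With the lane term none of the 3 was called (Chga 0.061, Neurog3 0.34 and Ghrl 0.53 as adjusted p), and Gcg was the only gene called. In the combined knockout against WT 1 gene was higher (Neurog3), where 8.1% of genes were higher and 8.01% lower, and the count was 0 without WT library 1 or 2 and in the paired-library fit. That fit called 0.664% of all genes in either direction. Without combined knockout library 1 the Neurog3 call was also lost (adjusted p = 0.051), and without library 4 the count was 2.

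Several of the genes rose against the single knockouts. In the combined knockout against Rnaseh2b ΔIEC 6 of 10 were higher (Neurog3, Chga, Chgb, Tph1, Ghrl and Sct) and none lower, where 11.1% of all genes were higher and 14.4% lower. The median was 0.48 against 0.00 for all genes. The count was 3 without Rnaseh2b ΔIEC library 1, when Chgb, Sct and Tph1 were lost, and 2 without library 2, when Chga was lost as well (adjusted p = 0.092). It was 2 in the paired-library fit (Neurog3 and Chga), which called 5.41% of all genes in either direction. Within lane 2, with 1 pair per genotype, 8 were called, among them Gcg (0.295, but -0.1 with all libraries). The p-values within lane 2 measure only the spread within pairs here, and the share of all genes called is not given. In the combined knockout against Atg16l1 ΔIEC 3 of 10 were higher (Neurog3, Chga and Chgb), where 12.6% of genes were higher and 12.5% lower. Without Atg16l1 ΔIEC library 2 the count was 6. All 3 were called in the paired-library fit, which called 3.73% of all genes in either direction. That fit uses 1 correlation for all genes and left the SE of Chgb at 0.17. The Chgb pairs differed by 0.53 in the combined knockout and by -0.54 in Atg16l1 ΔIEC. Between the single knockouts, Rnaseh2b ΔIEC against Atg16l1 ΔIEC, limma called none of the 10, where 4.34% of genes were higher and 2.47% lower. In that comparison 2 genes (Ghrl and Neurod1) had an unadjusted p under 0.05, the closest being Ghrl (-0.40, adjusted p = 0.10). The share of all genes at that unadjusted p is not given. In the paired-library fit none of the 10 was under it, where 9.48% of all genes were, and none was called. Without Atg16l1 ΔIEC library 3, 1 was called.

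**Figure D2:**
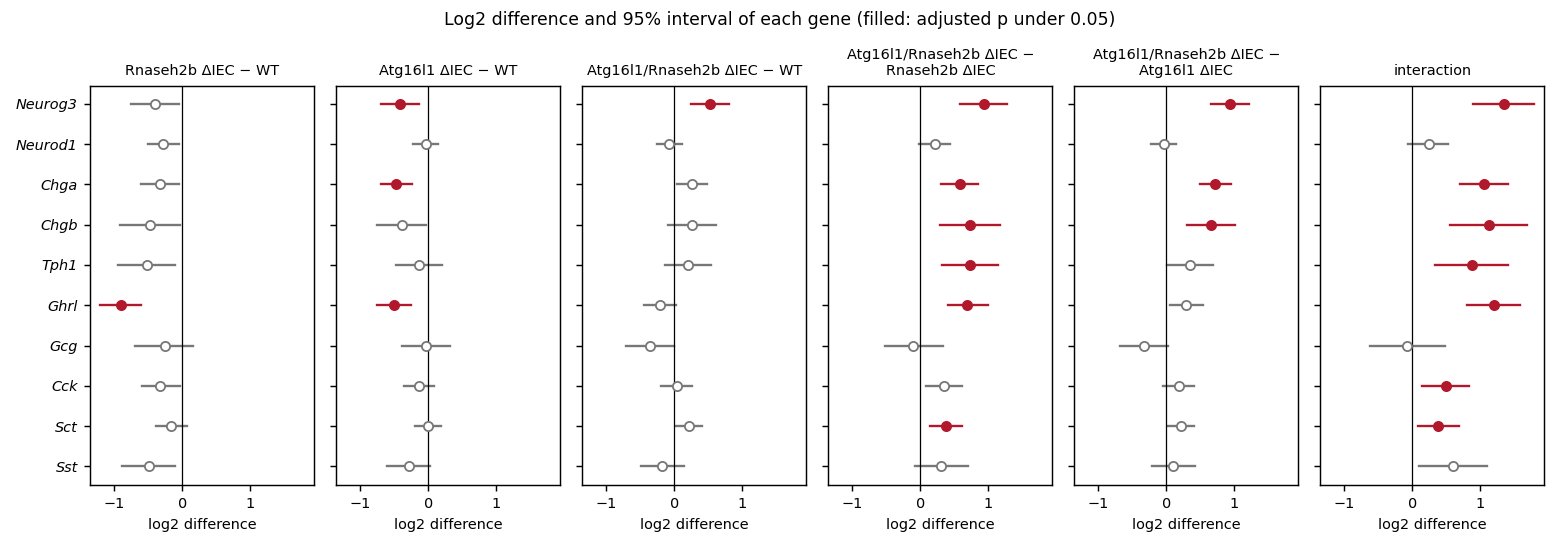
Log2 difference (point) and 95% interval (line) of each gene in 5 comparisons of genotypes and in the interaction, with filled red points for an adjusted p under 0.05. Neurog3 reads 0.93 and 0.94 against the single knockouts, while Neurod1 and Gcg have no filled point in any panel.

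The interaction asks whether the effect of deleting Rnaseh2b differed with Atg16l1 present or deleted, and it is the difference of the combined knockout from Atg16l1 ΔIEC minus that of Rnaseh2b ΔIEC from WT. It was positive and called for 7 of the 10 genes, where 17% of all genes were called with a positive and 18.1% with a negative value. It was 1.34 for Neurog3 (adjusted p = 0.00052), 1.20 for Ghrl (0.00039), 1.12 for Chgb (0.0055), 1.05 for Chga (0.00050), 0.87 for Tph1 (0.016), 0.49 for Cck (0.032) and 0.38 for Sct (0.048). Of these, Neurog3, Ghrl, Chgb and Chga were also called in the paired-library fit, which called 12.1% of all genes in either direction. The count was 4 without Rnaseh2b ΔIEC library 1 or 2, and with a lane term, under which Neurog3, Chga and Sct were called as before and Gcg was called as well (1.109, adjusted p = 0.00094). Without either Rnaseh2b ΔIEC library the calls of Tph1, Cck and Sct were lost. The Cck call was also lost without WT library 3 or 4, Atg16l1 ΔIEC library 1, 3 or 4 or combined knockout library 3 or 4 (adjusted p from 0.051 to 0.061 in these), and the Sct call without WT library 1, 3 or 4, Atg16l1 ΔIEC library 1, 3 or 4 or combined knockout library 1 or 2 (from 0.057 to 0.087). Sst had 0.60 (adjusted p = 0.061), Neurod1 0.24 (0.19) and Gcg -0.07 (0.85). This contrast uses the same libraries as the comparisons above.

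For some hormones the pairs of 1 genotype differed by more than the genotypes did. The median absolute difference between pairs over all genes tested was 0.08 in WT, 0.08 in Atg16l1 ΔIEC and 0.10 in the combined knockout. In the combined knockout the second pair differed from the first by -0.79 for Gcg, 0.53 for Chgb, 0.51 for Sst and 0.50 for Tph1, but only by 0.07 for Neurog3 and -0.09 for Chga. A larger absolute difference was found for 1.1% of all genes in the case of Gcg and for 65.2% in the case of Neurog3. In Atg16l1 ΔIEC the second pair was lower for all 10 genes, by 0.02 (Gcg) to 0.54 (Chgb).

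**Figure D3:**
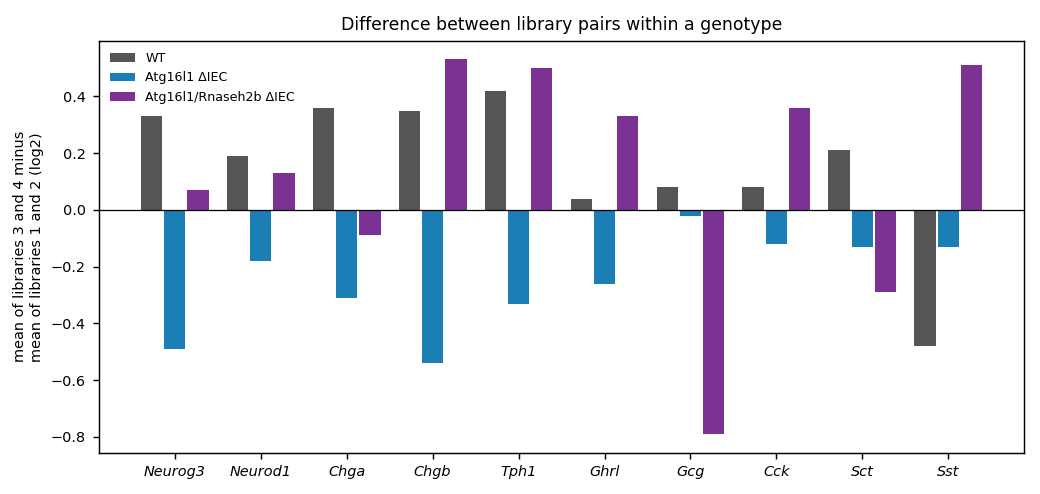
Mean of libraries 3 and 4 minus mean of libraries 1 and 2 (vertical axis, log2) for each gene in the 3 genotypes with 4 libraries. In the combined knockout (Atg16l1/Rnaseh2b ΔIEC) the bars reach -0.79 for Gcg and 0.53 for Chgb, while those of Neurog3 and Chga stay near 0.

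Across the 14 libraries Gcg was the gene whose level least followed the others. The correlation of each gene with the mean standardized level of the other 9 was 0.88 for Tph1 and Ghrl, 0.86 for Chgb, 0.80 for Cck, 0.79 for Neurog3, 0.71 for Chga, 0.64 for Neurod1, 0.51 for Sct, 0.39 for Sst and -0.24 for Gcg. Among pairs of genes, Neurog3 and Chga had r = 0.94 and Chgb and Tph1 r = 0.91. The other genes whose levels most resembled the mean of the 10 were Anxa5 (r = 0.97), Vangl1 and Scg3 (0.96), Hepacam2, Cpe, Cep68, Rab27b and Glce (0.95), and Syt13 and Cacna2d1 (0.94). These values describe libraries that share genotypes and pairs.

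Of 18 further transcription factors of the lineage tested, 9 were lower in Rnaseh2b ΔIEC than in WT and none higher (median -0.24), where 12.3% of all genes were lower, including Rfx6 (-0.51, adjusted p = 0.011), Pax6 (-0.42, 0.0034), Nkx2-2 (-0.37, 0.037) and Lmx1a (-0.35, 0.010). In Atg16l1 ΔIEC 6 were lower than in WT and none higher, where 10.4% of all genes were lower. Against WT none was higher and 1 was lower in the combined knockout (Pax6, -0.22, 0.043), with a median of 0.00. Against Rnaseh2b ΔIEC, 7 were higher in the combined knockout and none lower (median 0.22), where 11.1% of all genes were higher, including Nkx2-2 (0.55, 0.0058), Lmx1a (0.50, 0.0017), Rfx6 (0.49, 0.014) and Foxa2 (0.48, 0.00069). Against Atg16l1 ΔIEC, 6 were higher and none lower, where 12.6% of all genes were higher, led by Foxa2 (0.53, 0.00011). The paired-library fit called none against WT in any knockout, and 2 against each single knockout.

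Of 24 granule and amine genes tested, which process, store and release hormones, 8 were lower and 1 higher in Rnaseh2b ΔIEC than in WT (median -0.23), where 12.3% of all genes were lower and 14.4% higher. In Atg16l1 ΔIEC 9 were lower and 1 higher than in WT, where 10.4% and 8.73% of all genes were. In the combined knockout 2 were lower and 4 higher than in WT, where 8.01% and 8.1% of all genes were. In Rnaseh2b ΔIEC against WT the prohormone convertase gene Pcsk1 fell by 0.70 on the log2 scale (adjusted p = 0.0017). The secretogranin gene Scg2 fell there by 0.66 (7.8e-05) and the carboxypeptidase gene Cpe by 0.65 (0.00071). The gene that rose, named after its value was seen, was Ddc (0.29, 0.0011), which encodes the decarboxylase of serotonin synthesis and is also expressed in enterocytes. In the combined knockout 15 were higher than in Rnaseh2b ΔIEC and none lower (median 0.30), where 11.1% of all genes were higher, led by Cpe (0.69, 0.00071) and Ptprn2 (0.68, 0.012), and 12 were higher than in Atg16l1 ΔIEC, where 12.6% were, led by Reg4 (0.78, 0.0011) and the vesicular amine transporter Slc18a1 (0.58, 0.00045). The paired-library fit called 3 lower in Rnaseh2b ΔIEC, 2 lower in Atg16l1 ΔIEC and none in the combined knockout against WT, and 3 and 2 higher in the combined knockout against Rnaseh2b ΔIEC and Atg16l1 ΔIEC. In the same order it called 5.69%, 3%, 0.664%, 5.41% and 3.73% of all genes in either direction.

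The further hormones divided. Among all genes 8.1% were higher and 8.01% lower in the combined knockout than in WT. Of 7 tested, Gip, the incretin gene of K cells, was higher in the combined knockout than in WT (0.52, adjusted p = 0.019) and Nucb2 as well (0.26, 0.032), whereas neurotensin (Nts, -0.83, 0.0013) and peptide YY (Pyy, -0.53, 0.0054), both hormones of the distal gut, were lower. None of these 4 was called against WT in the paired-library fit, which called 0.664% of all genes there. Nts and Pyy were both at an adjusted p of 0.055 in that fit. Pyy was also lower in Rnaseh2b ΔIEC (-0.61, 0.0036), a call that held in the paired-library fit (adjusted p = 0.025). Against Rnaseh2b ΔIEC and Atg16l1 ΔIEC, Nts differed in the combined knockout by -0.87 and -0.73, and these calls held in the paired-library fit (adjusted p = 0.037 and 0.042). Nucb2 (0.36, 0.012) and Ucn3 (0.36, 0.033) were higher than in Rnaseh2b ΔIEC, where 11.1% of all genes were higher and 14.4% lower. Gip (0.68, 0.0033) and Ucn3 (0.32, 0.025) were higher and Pyy lower (-0.30, 0.044) than in Atg16l1 ΔIEC, where 12.6% and 12.5% of all genes were. None of these further calls held in the paired-library fit. Nts averaged 7.01 in the first and 6.61 in the second pair of the combined knockout, so that, as for Gcg, the pair on lane 1 was lower.

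Of 8 nutrient and peptide receptor genes tested, 3 were higher in the combined knockout than in Rnaseh2b ΔIEC, namely Trpa1 (0.62, adjusted p = 0.0089), the irritant channel of enterochromaffin cells, the fatty acid receptor Ffar4 (0.43, 0.019) and the somatostatin receptor Sstr2 (0.16, 0.028), where 11.1% of all genes were higher. None of the 3 was called in the paired-library fit. Of 11 Notch and secretory fate genes tested, Spdef (0.44, 0.0052), Gfi1 (0.32, 0.0020) and Notch2 (0.24, 0.016) were higher in that comparison and the Notch ligand gene Dll1 was lower (-0.40, 0.0015), having been 0.54 above WT in Rnaseh2b ΔIEC (0.00017). In the comparison with Rnaseh2b ΔIEC, 11.1% of all genes were higher and 14.4% lower. None of the 3 rises was called in the paired-library fit, in which 1 gene of the list was lower. Insm1, Sox4 and Atoh1 were not analysed here.

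Markers of other epithelial cells also differed between genotypes. Of 11 enterocyte markers, 10 were higher in Rnaseh2b ΔIEC than in WT, where 14.4% of all genes were, and 10 were lower in the combined knockout than in Rnaseh2b ΔIEC, where likewise 14.4% of all genes were. The paired-library fit called 4 and 8 of them, and 5.69% and 5.41% of all genes in either direction. Their summed log2 level was 17.58 to 18.20 in WT, 17.85 to 18.60 in Atg16l1 ΔIEC, 18.65 to 18.79 in Rnaseh2b ΔIEC and 17.30 to 17.87 in the combined knockout.

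Of 9 goblet cell markers, 3 were lower in Rnaseh2b ΔIEC and 5 in Atg16l1 ΔIEC than in WT, where 12.3% and 10.4% of all genes were. The paired-library fit called 2 in each, and 5.69% and 3% of all genes in either direction. Of these markers 6 were higher in the combined knockout than in Rnaseh2b ΔIEC and 8 than in Atg16l1 ΔIEC, where 11.1% and 12.6% of all genes were. The paired-library fit called 5 and 4, and 5.41% and 3.73% of all genes in either direction. Their summed level was 15.97 to 16.46 in WT, 15.50 to 15.79 in Atg16l1 ΔIEC, 15.59 to 15.74 in Rnaseh2b ΔIEC and 16.36 to 16.64 in the combined knockout. Of 11 Paneth cell markers, 2 were higher (Itln1 and Habp2) and 1 lower (Pnliprp2) in the combined knockout than in Rnaseh2b ΔIEC. Among all genes 11.1% were higher and 14.4% lower there. Against Atg16l1 ΔIEC 7 were higher, where 12.6% of all genes were. The paired-library fit called 1 higher and none lower against Rnaseh2b ΔIEC, and 3 higher against Atg16l1 ΔIEC. Of 9 tuft cell markers, 4 were lower in Rnaseh2b ΔIEC than in WT and none in Atg16l1 ΔIEC, with 1 and none in the paired-library fit. Among all genes 12.3% and 10.4% were lower in these comparisons, and the paired-library fit called 5.69% and 3% in either direction. Of 9 stem cell markers, 3 were lower in Rnaseh2b ΔIEC and 7 in Atg16l1 ΔIEC than in WT, where 12.3% and 10.4% of all genes were. The paired-library fit called 2 and 3, and 5.69% and 3% of all genes in either direction. In the combined knockout 2 stem cell markers were higher and 1 lower than in Rnaseh2b ΔIEC, where 11.1% and 14.4% of all genes were. Against Atg16l1 ΔIEC 6 were higher, where 12.6% of all genes were. The paired-library fit called 1, none and 4 of these. The summed level of the 10 enteroendocrine genes was 14.65 to 14.93 in WT, 14.26 to 14.75 in Atg16l1 ΔIEC, 14.36 to 14.39 in Rnaseh2b ΔIEC and 14.75 to 15.12 in the combined knockout. The part of a changed cell mixture in the results was not tested.

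**Figure D4:**
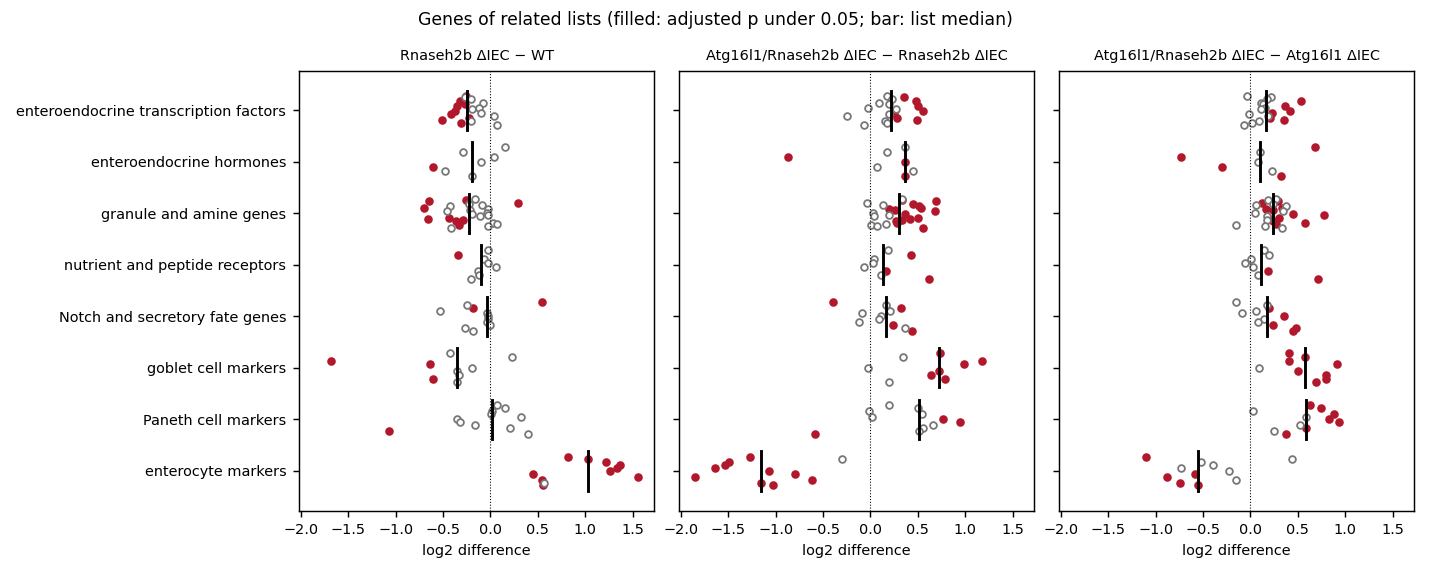
Log2 difference (horizontal axis) of each tested gene in 8 lists (rows) for 3 comparisons, with filled red points for an adjusted p under 0.05 and a black bar at the list median. The enteroendocrine lists lie mostly left of 0 in the first panel and right of 0 in the others, as do the goblet markers, and the enterocyte markers lie on the opposite side.

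The labelled tissue was checked against markers. The 8 epithelial identity markers had a summed level of 17.19 to 17.37 in all libraries. Of 12 stromal and immune markers, Ptprc, Cd3e, Cd79a, Adgre1, Col1a1, Col1a2, Pdgfra and Acta2 had a mean below the minimum for testing, whereas Vim (7.87), Pdgfrb (5.46), Pecam1 (4.37) and Lyz2 (3.86) lay above it. Among enteric neuron and glia markers, Elavl3, Elavl4, Phox2a, Uchl1, Prph and Gfap were below it, and Ret (8.36), Nefl (5.48), Tubb3 (5.29), S100b (4.97) and Snap25 (4.68) lay above it.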

How the data were processed

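RNA from 14 untreated small intestinal organoid cultures was sequenced by the authors on a HiSeq3000 with the TruSeq stranded mRNA kit. Reads were trimmed with cutadapt, aligned to GRCm38 with TopHat2 and counted with HTSeq, and the authors used DESeq2 for expression analysis. The authors excluded further Rnaseh2b ΔIEC samples over a quality issue with read counts. The deposited values are on a log2 scale (-2.13 to 17.45). The transformation is not named, low genes are shrunken, and depth is unknown, so no counting error is given. Symbols were found for 99.7% of gene IDs.

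Genes with a mean of at least log2 of 10 were tested with limma 3.58.1 (trend, R 4.3.3) in all 14 libraries with 1 mean per genotype, and p-values were adjusted over 12802 genes by Benjamini-Hochberg at a threshold of 0.05. The code was tested on simulated data. Exon lengths came from GENCODE M21. Alternatives were other filters, pseudocounts, scalings, lane, sex, replicate or pair terms, only the genotypes compared, 1 lane only, and leaving out each library.

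The 10 genes and the lists were chosen with earlier results of these data known. All 10 were described in every comparison, and of other lists at most 4 genes per comparison were named, those past the threshold with the largest differences. The genes most like the 10 were the 10 others with the highest Pearson r with their mean standardized level.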

Additional observations from a re-analysis of the deposited data

Results flagged for a closer look

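For 7 genes the effect of deleting Rnaseh2b differed with Atg16l1 present or deleted, by the interaction term of the limma fit: 1.05 for Chga, 1.12 for Chgb, 1.34 for Neurog3, 0.49 for Cck, 0.38 for Sct, 0.87 for Tph1 and 1.20 for Ghrl (log2). In all 7 the estimate was below 0 with Atg16l1 present and above 0 with it deleted, but not with a lane term. There Chgb (0.064) and Cck (0.045) were above 0 with Atg16l1 present, Cck was at -0.004 with it deleted, and the interaction was not called for Chgb (0.325, adjusted p = 0.53), Tph1 (0.113, 0.83), Ghrl (0.697, 0.066) or Cck (-0.048, 0.88). No library stood apart from the other 3 of its genotype for any of the 10 genes by Dixon's test, in 30 groups of 4 tested, which is blind to libraries that deviate in pairs.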

How the results depend on the processing

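Numbers of the 10 genes called are given. Against WT, the Rnaseh2b ΔIEC count of 1 became 3 with total scaling, 2 with a lane term (Gcg and Sct, with Ghrl lost), 7 with only these genotypes fitted and 3 with a sex term, and was 1 to 4 when each library was left out. The Atg16l1 ΔIEC count of 3 became 1 with a lane term (Gcg, with all 3 lost) and 0 in the paired-library fit, and was 2 to 3 without single libraries. The Atg16l1/Rnaseh2b ΔIEC count of 1 became 2 with a lane term, 0 in the paired-library fit, 4 within lane 1 and 3 with a sex term, and was 0 to 2 without single libraries. Against Rnaseh2b ΔIEC the count of 6 became 2 in the paired-library fit and was 2 to 7 without single libraries. With a lane term Chgb (0.466, adjusted p = 0.081) and Tph1 (0.476, 0.061) were lost from these calls, and Gcg (0.295, 0.017) was called. Against Atg16l1 ΔIEC the count of 3 became 5 with a sex term and was 3 to 6 without single libraries. A lane term kept that count but changed the genes, with Chgb lost (0.389, adjusted p = 0.084) and Sct called (0.366, 0.0068). Between single knockouts the count of 0 became 2 with a lane term (Gcg and Ghrl, both lower in Rnaseh2b ΔIEC) and was 0 to 1 without single libraries. For the interaction, 7 became 4 with a lane term and in the paired-library fit, and was 4 to 7 without single libraries. With the lane term the direction turned for 16 of 70 differences, among them Gcg between Atg16l1/Rnaseh2b ΔIEC and Rnaseh2b ΔIEC (0.295, also within lane 2), the interactions of Gcg (1.109), Cck (-0.048) and Sst (-0.17), 3 of 10 genes in Rnaseh2b ΔIEC against WT (Chgb, Cck and Sst) and 5 of 10 in Atg16l1 ΔIEC against WT (Chgb, Neurod1, Cck, Sst and Tph1). The cause was not tested. Same-numbered libraries of different genotypes did not deviate together (r from -0.5 to 0.3), so they share only a number. With the replicate block the counts were 1, 2, 1, 4, 3, 0 and 5 in the order above. The sex term was added after the data were seen. Other pseudocounts, upper-quartile scaling and the stricter or absent filter kept every count within 1.5 times. Depth is unknown, and Rnaseh2b ΔIEC rests on 2 libraries, taken as 1 pair in the paired-library fit.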
